A study of Mus musculus with 26 samples.

Results

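This account sets mouse embryonic stem cells (mESCs) that carry high Prdm14 in serum+LIF against wt mESCs held in 2i+LIF, and describes what the first do not have in common with the second. The comparison used 4 of the 15 RNA-seq libraries of a series of 26 samples, and they were picked by their labels: 2 FH-Prdm14 libraries, from lines G6 and F10, and 2 wt libraries from 2i+LIF, called 2i 1 and 2i 2 here. All of them derive from a mESC line with a Stella:GFP reporter. Each FH-Prdm14 line is 1 CRISPR clone without working Prdm14 (Prdm14-/-) to which a FLAG-HA-tagged Prdm14 cDNA was added back from a promoter that is not given in the sources used here, and it gave 1 library after 5 days in serum+LIF without feeder cells. The wt cells of the other arm carry the reporter but no deletion of Prdm14 and no Prdm14 cDNA, and their medium is free of serum and holds the MEK inhibitor PD0325901 at 0.8 µM and the GSK3β inhibitor CHIR99021 at 3.3 µM. Both media contain LIF, and every line of the study was maintained in 2i+LIF before it was moved to serum. Genotype, transgene, clone and medium all differ between the arms, so their shares in any difference cannot be told apart. Of 24015 genes, the 12500 with an RPKM (reads scaled by the length of the gene model and by the depth of the library) of at least 1 in at least 2 of the 4 libraries were tested.

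Prdm14 is a DNA-binding protein of the PRDM family that is found in the inner cell mass, in primordial germ cells and in mESCs, where it represses genes together with the ETO-family corepressor Mtgr1 (gene Cbfa2t2). mESCs in 2i are often described as a model of the naive epiblast before implantation. The MEK inhibitor cuts the signal from FGF receptors to ERK, and the GSK3β inhibitor lets β-catenin accumulate, which relieves pluripotency genes from repression by Tcf7l1. Serum leaves ERK active and brings BMP, lipids and lysophospholipids that act on the cytoskeleton and on the factors SRF and YAP. The genes below are ordered by these inputs: naive factors first, then the signals that 2i blocks or activates, then germline and early embryonic genes, metabolism and lineage markers.

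The libraries held between 10668572 and 14460382 reads on genes. The FH-Prdm14 pair was close, with 87 of the 12500 genes (0.7%) over 2-fold apart, whereas the 2i pair had 1417 genes (11.34%) over 2-fold apart. Between the arms, 1488 genes (11.9%) separated F10 from 2i 1 and 1632 (13.06%) separated G6 from 2i 1. Against 2i 2 these were 2506 (20.05%) for F10 and 2780 (22.24%) for G6. Of these 4 libraries, 2i 2 stood apart also in its share of reads on genes for RNAs without a poly(A) tail. It was 0.3269% against 0.016% in 2i 1 and 0.0127 to 0.0143% in FH-Prdm14. Rescaling without these genes is given in the last section, and any other role of that excess in the results below was not tested. Values are therefore given for each library, and for some lists counts also without 2i 2. These counts come from a fit on the other 14 libraries of the series that was chosen after the data were seen. It takes the spread from all conditions. With 1 library left in the 2i arm, it has no measure of the spread between 2i libraries, which was wider than in FH-Prdm14. Its counts are a description. The 7 markers of mESCs, Pou5f1, Sox2, Nanog, Sall4, Utf1, Dppa5a and Lin28a, were at 23.6 to 2393 RPKM in the 4 libraries. Of 9 fibroblast markers, Col3a1, Prrx1, Dcn, Lum and Postn were at 0 in all 4, and the summed level was 17.4 to 19.3 RPKM in FH-Prdm14 and 6.1 to 6.4 RPKM in 2i, mostly from Thy1 and Twist1. In bulk RNA, fewer cells of a kind and less RNA per cell cannot be told apart. Levels in serum+LIF are given as a reference from 1 wt library, 3 libraries of FH-Mtgr1 lines (Mtgr1-/- clones with tagged Mtgr1 added back), 2 of the Prdm14-/- clones and 2 of the same clones with the mutant Prdm14 E294K, a form made to break its contact with Mtgr1. The Mtgr1-/- libraries of the series are not among these references. The references also differed in the share of reads on genes for RNAs without a poly(A) tail. It was 0.0103 and 0.0112% in Prdm14-/-, 0.0491% in wt serum, 0.0401 to 0.1271% in FH-Mtgr1 and 0.065 and 0.1206% in E294K. Whether this bears on differences between the references was not tested.

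Of the 12500 genes, 655 (5.24%) passed the threshold of a limma adjusted p under 0.05, of which 495 (3.96%) were higher and 160 (1.28%) lower in FH-Prdm14. The split was 585 to 319 by limma with voom weights on reads computed back from RPKM, and 602 to 305 with scaling to the median ratio of genes, a scaling that moved the median difference of all genes from 0.09 to -0.01 on the log2 scale. Against 2i 1 alone, in the fit on 14 libraries, 1327 genes (10.6%) were higher and 899 (7.19%) lower. Both FH-Prdm14 libraries lay above both 2i libraries for 4426 genes (35.4%) and below them for 3154 (25.2%), which is the background for each count of members whose groups did not overlap. Leaving out 1 library left 31 genes past the threshold without FH-Prdm14 G6, 85 without F10, 7315 without 2i 1 and 4571 without 2i 2, and of the 62 genes past the threshold that the naming rule took, 45 lost the call without G6 and 37 without F10, each with its direction kept. Of the 495 higher genes 253 were under 1 RPKM in both 2i libraries, and of the 160 lower genes 24 were under 1 RPKM in both FH-Prdm14 libraries, so these passed the filter on low values through the arm in which they were high and had to differ. For such genes no support is drawn from the call, and the limma adjusted p given is that of the fit with no filter, over 18864 genes, in which 518 were higher and 119 lower. In that fit 10 of the 62 genes lost the call, at a limma adjusted p of 0.0501 to 0.0603, namely Prdm14, Mir8109, Bmp4, Actg1, Piwil2, Gata4, Sparc, Krt19, Rhox6 and Hk1. With 2 libraries on each side, the spread of a gene is poorly known, so a p that misses the threshold does not show that levels were alike.

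**Figure D1:**
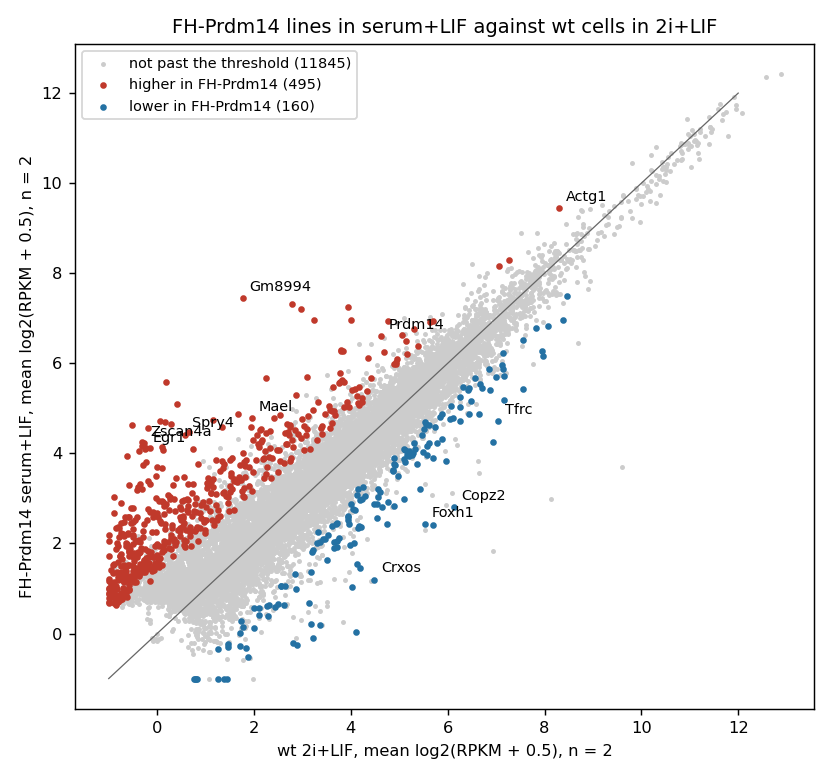
Each point is 1 of 12500 genes, placed by its mean log2(RPKM + 0.5) over the 2 wt 2i+LIF libraries (horizontal) and over the 2 FH-Prdm14 libraries in serum+LIF (vertical), with the line of equal levels. Red points (495) are higher and blue points (160) lower in FH-Prdm14 by limma's adjusted p, with two-cell genes and Egr1 far above the line and Crxos and Foxh1 far below it.

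Prdm14 itself was the check on the labels. It stood at 116 and 79.8 RPKM in FH-Prdm14 G6 and F10 and at 30.8 and 19.12 RPKM in 2i 1 and 2i 2, so the transgenic lines held 3.93-fold the level of 2i cells, a log2 difference of 1.97 ± 0.31 (SE, limma adjusted p = 0.0413). This call was lost without G6 (limma adjusted p = 0.188), without F10 (0.0813), with no filter on low values (0.0555) and with a filter at 5 RPKM (0.0525). The wt serum library had 2.77 RPKM, so that 2i cells themselves lay well above it and FH-Prdm14 lines further above still. Reads from the cDNA and from the mutated gene (NCBIM37, chromosome 1, 13103538 to 13117244, minus strand) fall on the same gene model and were not separated. Cbfa2t2, which encodes Mtgr1, was at 27.4 and 30.3 RPKM in FH-Prdm14 and 25.7 and 21.4 RPKM in 2i and did not pass the threshold (limma adjusted p = 0.354). Its relatives Cbfa2t3 and Runx1t1 stayed under 1 RPKM in all 4 libraries and were not tested. Of the 7 tested genes of Prdm14 and its corepressors, 1 was higher, Prdm14 itself, and 0 lower (background 3.96% and 1.28%). Throughout, a pair of counts gives genes higher and then lower, and voom stands for the limma fit with voom weights (1 and 1 at an unadjusted p under 0.05, 1 and 0 by voom for this list).

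None of the 17 naive pluripotency genes passed the threshold in either direction (background 3.96% higher and 1.28% lower by limma). The counts were 3 and 1 at an unadjusted p under 0.05, 0 and 1 by voom, and 1 and 2 in the fit without 2i 2, where Sall4 was higher and Tcl1 and Tet2 were lower, Tcl1 being also the 1 gene lower by voom. Nanog, a core factor of the naive state, was at 213 and 208 RPKM in FH-Prdm14 and at 285 and 133 RPKM in 2i, the FH-Prdm14 values lying between the 2i values. The same placing was seen for Klf2, a factor sustained by the MEK inhibitor, with 273 and 230.5 RPKM in FH-Prdm14 and 288 and 97.7 RPKM in 2i. Klf4, which LIF induces through Stat3, stood at 111 and 101 RPKM against 97.6 and 28.9 RPKM. For these 3 genes the 2i libraries were further from each other than the FH-Prdm14 libraries were from 2i 1. Klf5 was at 165 and 176 RPKM against 148 and 101 RPKM, with both FH-Prdm14 values on top. Esrrb, a target that the GSK3β inhibitor frees from Tcf7l1, was at 139.9 and 139 RPKM against 147 and 111 RPKM, and Zfp42 (Rex1) at 306 and 332 RPKM against 373 and 212 RPKM. FH-Prdm14 lay above the wt serum library, which had 91.2 RPKM of Nanog, 28.003 RPKM of Klf4 and 92.2 RPKM of Esrrb, whereas 2i 2 came close to it for Klf4. Both FH-Prdm14 libraries were above both 2i libraries for 5 naive genes and below them for 2, Tcl1 and Pou5f1 (background 35.4% and 25.2%). Both were named after their values were seen, and Tcl1, a coactivator of Akt signalling, had 50.8 and 54.7 RPKM in FH-Prdm14, 119 and 85.8 RPKM in 2i and 8.22 RPKM in wt serum (limma adjusted p = 0.0746 between FH-Prdm14 and 2i).

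The median log2 difference of the naive genes was 0.27 against both 2i libraries, but -0.20 against 2i 1 and 0.66 against 2i 2, so its sign rests on 2i 2. Over the same genes the median difference from the wt serum library was 1.16 for FH-Prdm14 and 0.56 for 2i, 2 comparisons that share that library. The median over all genes was 0.04 and -0.07 in these comparisons. Summed over the 17 genes, the level was 2732.8 and 2755.9 RPKM in FH-Prdm14, 3270.3 and 2041.2 RPKM in 2i, and 1666.6 RPKM in wt serum. The FH-Prdm14 sums lay between those of the 2i libraries and above that of wt serum.

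**Figure D2:**
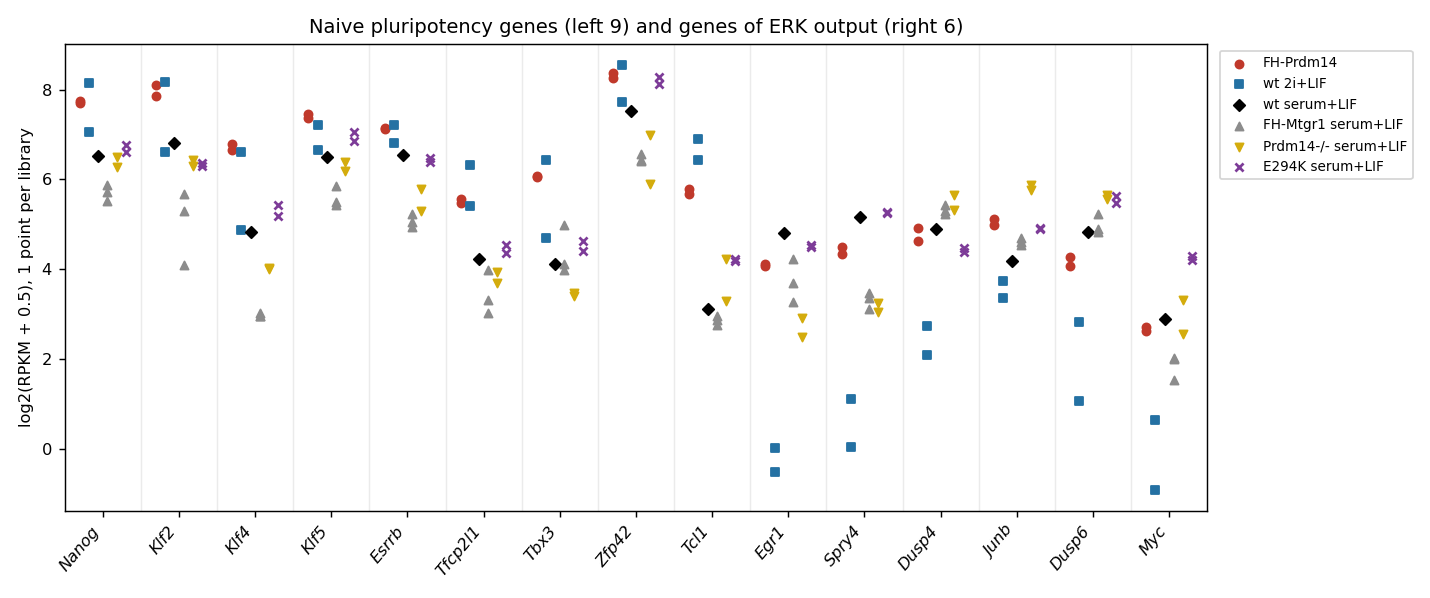
Levels as log2(RPKM + 0.5), 1 point per library, for 9 naive pluripotency genes (left) and 6 genes of ERK output (right), in FH-Prdm14 (red), wt 2i+LIF (blue), wt serum+LIF (black), FH-Mtgr1 (grey), Prdm14-/- (yellow) and E294K (purple). Red and blue points mix for most naive genes, whereas for Egr1, Spry4, Dusp4 and Junb both red points lie above both blue points and beside the serum libraries.

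Of 20 tested genes of ERK output, which ERK activity induces, 4 were higher in FH-Prdm14 and 0 lower (background 3.96% and 1.28%), 1 of the 4, Egr1, having passed the filter through FH-Prdm14 alone, and both FH-Prdm14 libraries were above both 2i libraries for 17 of the 20 (background 35.4%). The counts were 11 and 0 at an unadjusted p under 0.05, 5 and 0 by voom, and 8 and 0 without 2i 2 (background 10.6% and 7.19%). Egr1, an immediate-early transcription factor, was at 16.8 and 16.2 RPKM in FH-Prdm14 and at 0.519 and 0.203 RPKM in 2i. That was 45.8-fold higher, a log2 difference of 4.33 ± 0.26 (SE, limma adjusted p = 0.0399 with no filter), and a level between those of Prdm14-/- (5.14 and 7.07 RPKM) and wt serum (27.7 RPKM). Spry4, a feedback inhibitor of receptor tyrosine kinases, was at 19.9 and 21.9 RPKM against 1.65 and 0.527 RPKM, or 19.15-fold higher, a log2 difference of 3.84 ± 0.39 (SE, limma adjusted p = 0.0259). Dusp4, a nuclear phosphatase that switches ERK off, was at 29.95 and 24.4 RPKM against 3.78 and 6.18 RPKM, a log2 difference of 2.36 ± 0.28 (SE, limma adjusted p = 0.0263), and the wt serum library had 29.1 RPKM. Junb, an AP-1 subunit, was at 34.2 and 31.04 RPKM against 12.8 and 9.72 RPKM, a log2 difference of 1.51 ± 0.20 (SE, limma adjusted p = 0.0316). For each of the 4 genes the groups did not overlap, and in 2i the level was below that of each of the 8 serum reference libraries.

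The other 16 tested ERK genes did not pass. Dusp6, the cytoplasmic ERK phosphatase, had 16.4 and 18.7 RPKM in FH-Prdm14, while the 2i libraries differed from each other with 6.60 and 1.59 RPKM (limma adjusted p = 0.103). Its log2 difference was 1.34 against 2i 1 and 3.11 against 2i 2. Spry2 was at 27.7 and 26.9 RPKM against 18.7 and 12.8 RPKM (limma adjusted p = 0.113). Myc, shown in the plot of naive and ERK genes and named after its values were seen, was at 6.10 and 5.65 RPKM against 1.05 and 0.0325 RPKM (limma adjusted p = 0.0576). Etv5 and Ccnd1, also named after their values were seen, were at 139 and 138 and at 33.5 and 35.9 RPKM in FH-Prdm14 and at 109 and 101 and at 29.7 and 28.3 RPKM in 2i, levels that were close in all 4 libraries. The list's median difference was 0.83 against both 2i libraries, 0.55 against 2i 1 and 1.10 against 2i 2, beside 0.09, 0.02 and 0.16 for all genes. From the wt serum library the median difference was -0.10 for FH-Prdm14 and -0.91 for 2i, which share that library. Summed over 22 genes, the level was 592.8 and 573.8 RPKM in FH-Prdm14, 415.1 and 303.7 RPKM in 2i and 588.7 RPKM in wt serum.

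Formative epiblast genes, which mark the epiblast after implantation and need ERK, were mostly low in both arms. Of 12 tested genes 1 was higher and 0 lower (background 3.96% and 1.28%). The counts were 7 and 0 at an unadjusted p under 0.05 and 2 and 0 by voom. For 8 genes both FH-Prdm14 libraries were on top (background 35.4%). Sox3, a SoxB1 factor of the epiblast and early neural plate, was the 1 that passed, with 18.4 and 9.44 RPKM in FH-Prdm14, 1.41 and 1.21 RPKM in 2i and 2.62 RPKM in wt serum, a log2 difference of 2.92 ± 0.36 (SE, limma adjusted p = 0.0276). Fgf5, the usual marker of primed cells, was at 0.622 and 0.497 RPKM against 0.0749 and 0.0312 RPKM and was too low to be tested, whereas the Prdm14-/- clones had 15.3 and 12.8 RPKM. Pou3f1 (Oct6) was at 14.9 and 9.86 RPKM against 7.01 and 3.29 RPKM and Otx2 at 15.5 and 15.4 RPKM against 19.99 and 15.05 RPKM, neither past the threshold (limma adjusted p = 0.146 and 0.641). The wt serum library had 33.3 RPKM of Pou3f1 and 66.6 RPKM of Otx2, above all 4 libraries in both cases. The list's median difference was 0.90 against both 2i libraries and 0.58 and 0.81 against 2i 1 and 2i 2. Over the same genes FH-Prdm14 had a median difference of -0.81 from the wt serum library and 2i one of -1.93.

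Direct targets of β-catenin respond to the GSK3β inhibitor of 2i, and 2 of the 12 tested were higher in FH-Prdm14 and 0 lower (background 3.96% and 1.28%). Sp5 passed the filter through FH-Prdm14 alone, and with no filter it was the 1 of 18 that was higher. Sp5, a zinc-finger factor and common Wnt readout, was at 2.34 and 1.95 RPKM in FH-Prdm14 and 0.268 and 0.149 RPKM in 2i, a log2 difference of 1.90 ± 0.25 (SE, limma adjusted p = 0.0399 with no filter), with 0.331 RPKM in wt serum and 1.97 and 1.34 RPKM in the Prdm14-/- clones. Bmp4, a ligand that is also controlled by other inputs, was at 13.4 and 13.9 RPKM against 3.20 and 1.21 RPKM, a log2 difference of 2.49 ± 0.40 (SE, limma adjusted p = 0.0420). Axin2, a negative-feedback scaffold, stood at 7.86 and 6.84 RPKM against 3.06 and 2.22 RPKM, just outside the threshold (limma adjusted p = 0.0503). Lef1 was at 6.23 and 6.396 RPKM against 1.86 and 3.68 RPKM, and T (brachyury) remained under 1 RPKM in all 4. Cdx1 went the other way by its values, 0.311 and 0.672 RPKM against 4.23 and 1.70 RPKM (limma adjusted p = 0.0990), and was named after they were seen. The counts were 7 and 1 at an unadjusted p under 0.05 and 3 and 0 by voom. Both FH-Prdm14 libraries were above both 2i libraries for 9 of the 12 (background 35.4%) and below for 1 (25.2%). The median difference of the list was 0.67 against both 2i libraries and 0.66 and 0.62 against each, so the median did not turn on 2i 2. Single members could, such as Notum and Apcdd1, named after their values were seen. Their log2 differences were -0.70 and -1.16 against 2i 1 and 1.25 and 0.21 against 2i 2.

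Genes of the actin cytoskeleton and other targets of SRF and YAP had 3 of 17 tested members higher and 0 lower (background 3.96% and 1.28%). The counts were 7 and 0 at an unadjusted p under 0.05 and 3 and 0 by voom. For 12 members both FH-Prdm14 libraries were on top (background 35.4%). The promoter stretches of the 3 members that passed are shown because each holds a CArG box, the sequence that SRF binds. They come from RefSeq promoter windows of GRCm38.p6 (250 bases before to 50 after a gene start), run 5′ to 3′ on the strand of the gene, and have the CArG box in capitals. They lie at chr11:120348526-120348625 (minus strand) for Actg1, chr10:79988504-79988603 (plus strand) for Cnn2 and chr2:156775263-156775362 (plus strand) for Myl9.
Actg1: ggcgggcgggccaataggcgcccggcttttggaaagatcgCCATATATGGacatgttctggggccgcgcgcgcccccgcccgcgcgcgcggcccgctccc
Cnn2: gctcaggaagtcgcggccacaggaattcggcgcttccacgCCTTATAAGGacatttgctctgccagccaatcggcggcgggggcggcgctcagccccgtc
Myl9: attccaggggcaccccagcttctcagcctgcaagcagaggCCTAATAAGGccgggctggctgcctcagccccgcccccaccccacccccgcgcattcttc

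The box was searched on both strands and was found in 7 of the 13 list members with a promoter window, in 535 of all 32851 windows (1.629%) and in 142 of 9303 tested genes with a window (1.526%). Of all genes past the threshold with a window, 7 of 334 higher ones (2.096%) and 6 of 114 lower ones (5.263%) had it. A match describes the letters of the window and not a bound site.

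Actg1, cytoplasmic γ-actin, was at 689 and 699 RPKM in FH-Prdm14 and 324 and 306 RPKM in 2i, or 2.20-fold higher, a log2 difference of 1.14 ± 0.17 (SE, limma adjusted p = 0.0355). Cnn2, an actin-binding calponin, was at 71.4 and 65.8 RPKM against 22.2 and 17.8 RPKM, a log2 difference of 1.76 ± 0.18 (SE, limma adjusted p = 0.0259). Myl9, a regulatory light chain of myosin, was at 10.996 and 7.15 RPKM against 1.64 and 1.44 RPKM, a log2 difference of 2.20 ± 0.27 (SE, limma adjusted p = 0.0283). The wt serum library had 999 RPKM of Actg1, 58.9 RPKM of Cnn2 and 6.399 RPKM of Myl9, and the Prdm14-/- clones had more of each gene than either arm. Of the members most used as readouts, Acta1 was at 3.22 and 1.45 RPKM against 1.43 and 0 RPKM and Tagln at 8.54 and 5.32 RPKM against 4.49 and 2.66 RPKM. Ctgf, a YAP target, was at 23.8 and 19.3 RPKM against 14.98 and 2.80 RPKM, and Acta2 was too low to be tested. The Prdm14-/- clones held 95.9 and 117 RPKM of Acta1 and 144 and 201 RPKM of Tagln, levels that neither arm approached. The list's median difference was 1.03 against both 2i libraries, 0.50 against 2i 1 and 1.18 against 2i 2.

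Among 8 tested BMP targets, 1 was higher and 0 lower (background 3.96% and 1.28%), with 2 and 0 at an unadjusted p under 0.05 and 2 and 0 by voom. It was Id2, an inhibitor of bHLH factors, with 8.63 and 12.1 RPKM in FH-Prdm14 and 2.06 and 1.41 RPKM in 2i, a log2 difference of 2.27 ± 0.28 (SE, limma adjusted p = 0.0275). Its relative Id1 was at 15.2 and 17.4 RPKM against 6.82 and 4.01 RPKM (limma adjusted p = 0.0544), and wt serum had 57.2 RPKM. Id3 was at 18.1 and 11.9 RPKM in FH-Prdm14 and at 11.02 and 0.246 RPKM in 2i 1 and 2i 2, so the 2i libraries differed most from each other. Smad6 was at 14.02 and 14.3 RPKM against 17.4 and 7.49 RPKM. The list's median difference changed sign with the 2i library, -0.08 against 2i 1 and 1.38 against 2i 2.

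The Nodal pathway was the one signalling list with calls in the lower direction, 2 of 10 tested genes against a background of 1.28%, 1 of which passed the filter through 2i alone, with 0 higher (0 and 4 at an unadjusted p under 0.05, 0 and 3 by voom). Both FH-Prdm14 libraries were below both 2i libraries for 5 of the 10 (background 25.2%) and above them for 0. Foxh1 (NCBIM37, chromosome 15, 76498714 to 76500378, minus strand), the DNA-binding partner of Smad2 and Smad3 in the Nodal response, was at 5.36 and 4.51 RPKM in FH-Prdm14 and 34.3 and 60.8 RPKM in 2i, 9.64-fold lower, a log2 difference of -3.09 ± 0.31 (SE, limma adjusted p = 0.0259). All 8 serum reference libraries held 28.5 to 59.3 RPKM of Foxh1, a range that 2i 1 fell in and 2i 2 just exceeded. Among the libraries compared, Foxh1 was thus lowest in FH-Prdm14.

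The inhibitors Lefty1 and Lefty2, which Nodal induces to limit itself, missed the threshold, with 2i libraries that were far from each other. Lefty1 was at 14.9 and 12.6 RPKM against 165 and 58.996 RPKM (limma adjusted p = 0.0521), a log2 difference of -3.54 against 2i 1 and -2.06 against 2i 2. Lefty2 was at 13.2 and 9.64 RPKM against 276 and 35.5 RPKM (limma adjusted p = 0.138), a log2 difference of -4.55 against 2i 1 and -1.61 against 2i 2. The groups did not overlap for either gene. The ligand Nodal was at 42.4 and 41.9 RPKM against 51.7 and 21.96 RPKM and its coreceptor Tdgf1 (Cripto) at 351 and 372 RPKM against 487 and 316 RPKM, and for both the groups overlapped. Without 2i 2 the list had 6 members lower and 0 higher (background 7.19% and 10.6%), and its median difference was -1.02 against 2i 1 and -0.10 against 2i 2.

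Foxh1 was also among the 12 genes with the largest differences in the lower direction, taken from those with a mean of at least 5 RPKM in 2i and with groups that did not overlap, of which 11 are described. Read against the serum reference libraries, they showed several kinds of pattern, which are given as levels with no test. Tspo2, a cholesterol-binding protein best known from red blood cells, was at 0.416 and 0.444 RPKM in FH-Prdm14, 6.52 and 12.02 RPKM in 2i and 0.0672 to 1.008 RPKM in the 8 reference libraries. Hoxd9, a homeobox gene of the posterior body, was at 0.371 and 0.296 RPKM, 8.66 and 5.43 RPKM and 0.120 to 1.08 RPKM in the same order. Spic, an Ets-family factor, was at 0.677 and 0.656 RPKM, 11.3 and 6.42 RPKM and 0 to 0.894 RPKM. Among the libraries compared, these 3 genes were high in 2i alone, and FH-Prdm14 was within the range of the reference libraries. Crxos, a homeobox gene transcribed antisense to Crx whose reads were not separated by strand here, was at 1.81 and 1.77 RPKM in FH-Prdm14, 21.7 and 21.8 RPKM in 2i and 0.668 to 2.59 RPKM in the reference libraries. Pou2f3, a POU-domain factor of chemosensory cells, was at 1.45 and 1.67 RPKM, 14.1 and 17.8 RPKM and 0.479 to 3.31 RPKM, and Copz2, a subunit of COPI coats, at 7.12 and 5.88 RPKM, 54.1 and 89.4 RPKM and 6.31 to 15.1 RPKM. In Crxos and Pou2f3 FH-Prdm14 was again within that range, and in Copz2 G6 was within it and F10 below it. Over the 6 genes the log2 differences between FH-Prdm14 and 2i ran from -3.33 in Tspo2 and Copz2 to -2.95 in Spic. The limma adjusted p was 0.0254 in Crxos and Pou2f3 and 0.0258 in Copz2. Tspo2, Hoxd9 and Spic passed the filter through 2i alone and had 0.0399, 0.0399 and 0.0402 with no filter.

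In the remaining genes, FH-Prdm14 was below the reference libraries as well. Fam111a, a protease that protects replication forks, was at 0.706 and 0.584 RPKM in FH-Prdm14 and 6.92 and 13.9 RPKM in 2i, 16.1-fold lower, a log2 difference of -3.17 ± 0.37 (SE, limma adjusted p = 0.0416 with no filter). It was at 30.8 RPKM in wt serum, 11.7 to 14.3 RPKM in FH-Mtgr1, 16.1 and 15.6 RPKM in E294K and 3.26 and 3.70 RPKM in Prdm14-/-. FH-Prdm14 was below the clones without Prdm14, and the E294K lines were above them. What sets the level of Fam111a was not tested. Zp3, an egg coat protein, was at 0.355 and 0.368 RPKM in FH-Prdm14, 4.63 and 9.01 RPKM in 2i and 2.23 to 5.73 RPKM in the reference libraries, a log2 difference of -3.02 ± 0.36 (SE, limma adjusted p = 0.0417 with no filter). Cadm4, a cell adhesion molecule, was at 5.20 and 4.52 RPKM, 35.9 and 73.8 RPKM and 7.61 to 15.5 RPKM in the same order. Tnrc18, a chromatin protein, was at 2.21 and 2.27 RPKM, 22.2 and 14.1 RPKM and 4.75 to 15.6 RPKM. Like Foxh1, these 4 genes had their lowest levels among the 12 libraries compared in both FH-Prdm14 lines, and the 2i cells, whose Prdm14 level was above that of the wt serum library, did not share them.

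**Figure D3:**
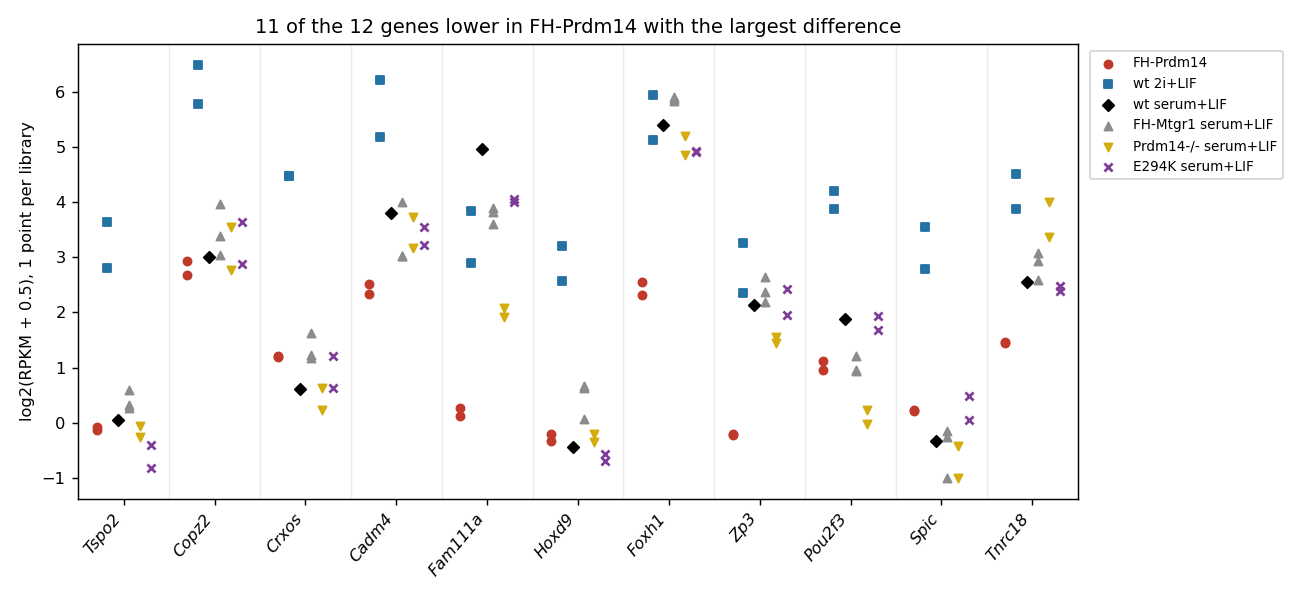
Levels as log2(RPKM + 0.5), 1 point per library, of 11 of the 12 genes with the largest lower values in FH-Prdm14 (red) against wt 2i+LIF (blue), with wt serum+LIF (black), FH-Mtgr1 (grey), Prdm14-/- (yellow) and E294K (purple) as references. For Tspo2, Hoxd9 and Spic only the blue points are high, whereas for Fam111a, Foxh1 and Zp3 the red points lie below all others.

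The promoter of Fam111a is shown because it was the 1 gene past the threshold, of 334 higher and 114 lower genes with a promoter window, in which the motif GGTCTCTAA was found on either strand. These letters are the core of the DNA motif known for Prdm14, and they occurred in 84 of 32851 windows (0.256%) and in 24 of 9303 tested genes with a window (0.258%). With 0 higher genes and 1 lower gene matching, the count among genes past the threshold was near that background. Binding of Prdm14 at Fam111a was not tested. The stretch lies at chr19:12573316-12573415 (plus strand) of GRCm38.p6 in RefSeq, with the reverse complement of the motif in capitals.
Fam111a: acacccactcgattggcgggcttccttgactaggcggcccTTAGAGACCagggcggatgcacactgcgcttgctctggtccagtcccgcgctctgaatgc

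That a window lacks these letters says nothing of sites further from the gene start.

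Most of the listed genes of the embryo at the 2-cell stage were near 0 in 2i and well detected in both FH-Prdm14 lines. In mESC cultures a few cells at a time pass through a state in which these genes, many of them multicopy and next to retroviral repeats, switch on together. The promoters of 4 Zscan4 copies are shown because they make plain how alike the copies are, with the TATA box in capitals, 210 bases each, from RefSeq windows of GRCm38.p6. They lie at chr7:10905022-10905231 (minus strand) for Zscan4b, chr7:11005541-11005750 (plus strand) for Zscan4c, chr7:11166154-11166363 (minus strand) for Zscan4d and chr7:11397734-11397943 (plus strand) for Zscan4f.
Zscan4b: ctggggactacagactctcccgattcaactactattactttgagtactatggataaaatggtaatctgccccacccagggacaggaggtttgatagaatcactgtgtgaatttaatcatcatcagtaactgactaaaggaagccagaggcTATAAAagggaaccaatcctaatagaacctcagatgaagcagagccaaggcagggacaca
Zscan4c: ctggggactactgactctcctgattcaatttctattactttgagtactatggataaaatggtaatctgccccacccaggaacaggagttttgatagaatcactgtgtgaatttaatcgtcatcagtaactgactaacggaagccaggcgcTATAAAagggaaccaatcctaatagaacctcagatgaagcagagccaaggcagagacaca
Zscan4d: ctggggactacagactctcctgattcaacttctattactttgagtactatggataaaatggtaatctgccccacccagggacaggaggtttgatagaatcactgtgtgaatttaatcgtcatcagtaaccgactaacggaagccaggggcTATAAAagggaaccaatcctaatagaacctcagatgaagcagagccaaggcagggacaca
Zscan4f: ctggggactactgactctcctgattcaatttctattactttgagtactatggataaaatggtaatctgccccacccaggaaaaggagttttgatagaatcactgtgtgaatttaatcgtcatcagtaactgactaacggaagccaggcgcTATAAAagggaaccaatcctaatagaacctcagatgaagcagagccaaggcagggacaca

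Any pair of them was identical at 94.8 to 99.0% of the 210 bases. Reads of such copies can be split among gene models in ways that are not known here, so the level of a single copy is uncertain and the family is best read as a whole.

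Of 31 listed two-cell genes, 28 are in the table and 23 passed the filter on low values, 20 of them through FH-Prdm14 alone with under 1 RPKM in both 2i libraries. By limma 22 of the 23 were higher in FH-Prdm14 and 0 lower, which describes genes that for the most part had to differ to be tested and is not set against a background. With no filter, 21 of 24 were higher and 0 lower. Zscan4a, of a family of SCAN-domain factors that act at telomeres, was at 24.7 and 13.5 RPKM in FH-Prdm14 and at 0.374 and 0.277 RPKM in 2i, 58.7-fold higher, a log2 difference of 4.51 ± 0.34 (SE). Zscan4c was at 16.1 and 10.2 RPKM against 0.412 and 0.240 RPKM, a log2 difference of 4.02 ± 0.30 (SE). These copies, like Zscan4d and Zscan4f, were near 0 in 2i. Zscan4d was at 11.9 and 6.91 RPKM against 0.376 and 0.157 RPKM, a log2 difference of 3.66 ± 0.34 (SE). Zscan4f was at 21.6 and 13.1 RPKM against 0.666 and 0.128 RPKM, a log2 difference of 4.34 ± 0.42 (SE). With no filter the limma adjusted p of each of these 4 copies was 0.0399. In each copy G6 was the higher of the FH-Prdm14 lines and both 2i libraries were under 1 RPKM. The reference libraries were no higher than 1.86 RPKM for any of these 4 copies, E294K lines included, whose Prdm14 RNA was at 105 and 89.9 RPKM.

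Other families of the list were higher too. Usp17lc, of the Usp17-like deubiquitinases, was at 18.6 and 11.8 RPKM in FH-Prdm14 and 0.221 and 0.0920 RPKM in 2i, a log2 difference of 4.55 ± 0.30 (SE). Gm8300 and Gm2022, of a family of eIF1A-like genes, were at 31.1 and 17.4 RPKM and 36.7 and 17.7 RPKM in FH-Prdm14 and at 0.3004 and 0.459 RPKM and 0.514 and 0.729 RPKM in 2i. Sp110, a nuclear body protein, was at 44.2 and 25.7 RPKM against 1.19 and 0.555 RPKM, a log2 difference of 4.68 ± 0.38 (SE, limma adjusted p = 0.0255). Dux, the homeobox gene that can switch on the programme, and Zfp352, a zinc-finger gene of the 2-cell embryo, were named after their values were seen. Dux was at 24.1 and 11.7 RPKM against 0.509 and 0.308 RPKM and Zfp352 at 8.16 and 4.95 RPKM against 0.373 and 0.0345 RPKM. Tdpoz2 and Pramef6, also named after their values were seen, were listed at 0 in both 2i libraries and at 1.22 and 1.21 RPKM and 1.20 and 1.07 RPKM in FH-Prdm14. With no filter the limma adjusted p was 0.0399 for Usp17lc, Gm8300, Gm2022, Dux, Tdpoz2 and Pramef6 and 0.0411 for Zfp352. Eif1a, the member that did not pass, is used in all cells and was at 48.7 and 54.5 RPKM against 41.2 and 42.6 RPKM. Tcstv1, Tcstv3, Gm4340 and Gm6763 were listed at 0 in all 4 libraries. Summed over the 28 genes, the level was 400.3 RPKM in G6 and 250.7 RPKM in F10. It was 48.7 to 49.8 RPKM in 2i, most of which was Eif1a, and 54.8 to 77.7 RPKM in the reference libraries. G6 and F10 are different clones by their labels, and what sets them apart was not tested. Over the 23 tested genes the median difference was 3.66 on the log2 scale, 3.53 and 3.87 against 2i 1 and 2i 2, as a description.

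The 12 genes with the largest differences in the higher direction, with a mean of at least 5 RPKM in FH-Prdm14, held 5 members of this list, Gm8300, Sp110, Usp17lc, Gm2022 and Zscan4a. The others were Gm8994, Gm4971, Usp17le, AA792892, Usp17lb, D17Ertd648e and the microRNA gene model Mir8109, which is short and was not past the threshold with no filter (limma adjusted p = 0.0535). Gm8994 was at 237 and 127 RPKM in FH-Prdm14, 4.77 and 1.69 RPKM in 2i and 0.749 to 10.3 RPKM in the reference libraries, a log2 difference of 5.68 ± 0.52 (SE, limma adjusted p = 0.0258). Usp17le and Usp17lb were at 32.7 and 18.1 RPKM and 24.1 and 14.1 RPKM, and under 1 RPKM in 2i. D17Ertd648e was at 198 and 128 RPKM against 8.29 and 4.97 RPKM, a log2 difference of 4.53 ± 0.33 (SE, limma adjusted p = 0.0254). In each of the 12 genes G6 was above F10, and F10 was above all reference libraries. That both lines lay above both 2i libraries was part of the rule by which the 12 were taken.

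**Figure D4:**
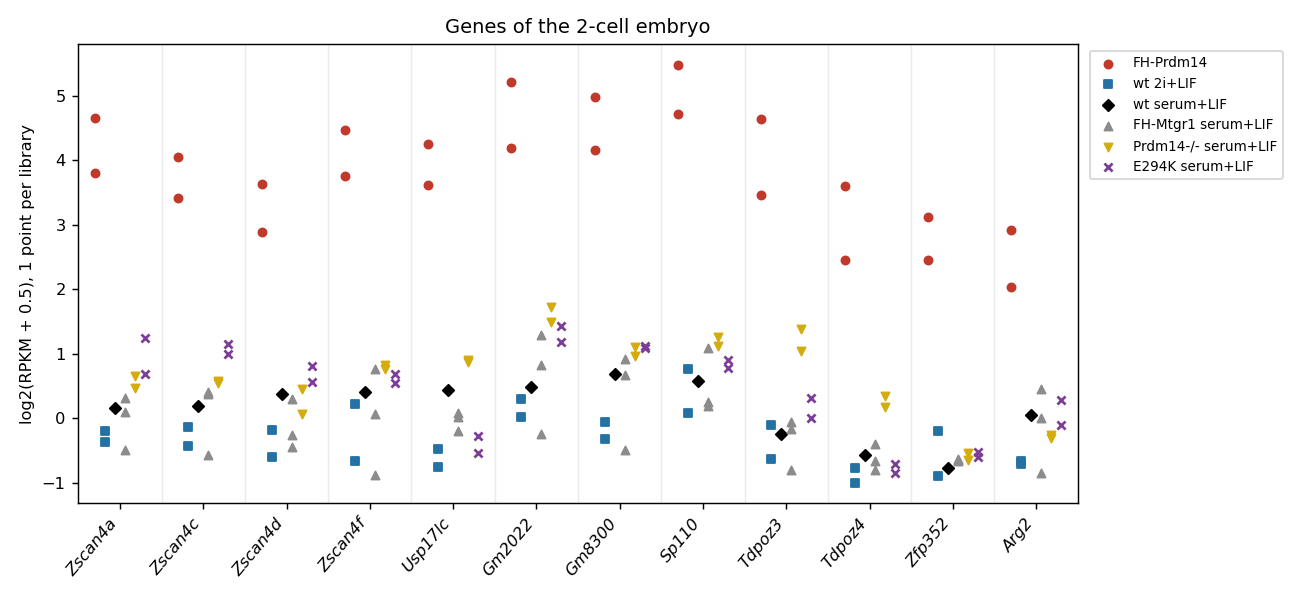
Levels as log2(RPKM + 0.5), 1 point per library, of 12 two-cell genes, with FH-Prdm14 in red, wt 2i+LIF in blue, wt serum+LIF in black, FH-Mtgr1 in grey, Prdm14-/- in yellow and E294K in purple. Both red points stand above all other libraries for each gene, and the upper of them is line G6.

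Germline genes, many of which are held silent by DNA methylation, had 5 of 24 tested members higher and 0 lower in FH-Prdm14 (background 3.96% and 1.28%). The counts were 11 and 1 at an unadjusted p under 0.05 and 6 and 1 by voom. Both FH-Prdm14 libraries were above both 2i libraries for 15 of the 24 (background 35.4%) and below for 2 (25.2%). Of the 5 that passed the threshold, Slc25a31 and Taf7l passed the filter through FH-Prdm14 alone, and with no filter 4 of 26 were higher. Mael, which guards the germline against transposons, was at 29.4 and 24.96 RPKM in FH-Prdm14 and 3.52 and 3.23 RPKM in 2i, 8.05-fold higher, a log2 difference of 2.83 ± 0.18 (SE, limma adjusted p = 0.0254), with 61.7 RPKM in wt serum. Slc25a31, the ADP/ATP carrier of the testis, was at 2.84 and 2.82 RPKM against 0.311 and 0.185 RPKM, and Taf7l, a germ cell subunit of TFIID, at 2.78 and 2.68 RPKM against 0.484 and 0.404 RPKM (limma adjusted p = 0.0399 and 0.0411 with no filter). D1Pas1, an RNA helicase of the testis, was at 22.8 and 21.3 RPKM against 5.66 and 3.62 RPKM, a log2 difference of 2.16 ± 0.25 (SE, limma adjusted p = 0.0261), and the wt serum library had 7.24 RPKM. Piwil2, a Piwi protein, was at 10.4 and 10.4 RPKM against 3.64 and 4.67 RPKM, a log2 difference of 1.24 ± 0.20 (SE, limma adjusted p = 0.0441). For Mael, Slc25a31 and Taf7l the level in the 1 wt serum library was near or above that of FH-Prdm14. FH-Mtgr1 had 1.79 to 2.34 RPKM of Slc25a31 and 3.30 to 4.02 RPKM of Taf7l. The Prdm14-/- and E294K libraries were below FH-Prdm14, with 0.715 to 1.26 RPKM of Slc25a31 and 0.684 to 1.38 RPKM of Taf7l. Mael was at 14.1 and 17.3 RPKM in Prdm14-/- and 28.4 and 36.9 RPKM in E294K. Dazl, an RNA-binding protein of germ cells, was at 13.4 and 11.2 RPKM in FH-Prdm14 and 16.3 and 11.6 RPKM in 2i, which overlapped. It was lower in wt serum, at 2.25 RPKM. Ddx4 was at 4.78 and 5.78 RPKM against 2.11 and 2.90 RPKM and Sycp3 at 9.02 and 7.64 RPKM against 4.09 and 4.18 RPKM, both with groups apart and neither past the threshold (limma adjusted p = 0.0930 and 0.0652).

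The machinery of DNA methylation had 1 of 10 tested genes lower and 0 higher (background 1.28% and 3.96%). The counts were 2 and 1 at an unadjusted p under 0.05 and 0 and 1 by voom. Uhrf1, which guides Dnmt1 to newly copied DNA, was at 113 and 113 RPKM in FH-Prdm14 and 262 and 275 RPKM in 2i, 2.38-fold lower, a log2 difference of -1.25 ± 0.15 (SE, limma adjusted p = 0.0263), while wt serum had 158 RPKM. In the other serum libraries Uhrf1 was at 112 and 103 RPKM in Prdm14-/-, 118 to 130 RPKM in FH-Mtgr1 and 168 and 164 RPKM in E294K. The de novo enzymes were low in both arms compared with serum. Dnmt3b was at 22.8 and 16.6 RPKM in FH-Prdm14 and 11.7 and 4.71 RPKM in 2i, and wt serum had 149.5 RPKM. Dnmt3a was at 10.8 and 9.997 RPKM against 7.397 and 6.88 RPKM, and the cofactor Dnmt3l at 53.1 and 49.7 RPKM against 49.5 and 40.2 RPKM, with 28.97 and 152 RPKM in wt serum. None of these 3 genes passed between FH-Prdm14 and 2i (limma adjusted p = 0.159, 0.157 and 0.506). Dnmt1, the maintenance enzyme, was at 75.97 and 74.8 RPKM against 81.6 and 101 RPKM. Relative to the wt serum library, which both comparisons share, the median difference of the list was -0.64 in FH-Prdm14 and -0.63 in 2i.

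Of 18 tested imprinted genes, 2 were higher and 0 lower (background 3.96% and 1.28%), with 6 and 2 at an unadjusted p under 0.05 and 2 and 0 by voom. H19, a noncoding RNA of the maternal allele, was at 51.4 and 51.99 RPKM in FH-Prdm14 and 10.7 and 6.001 RPKM in 2i, a log2 difference of 2.61 ± 0.29 (SE, limma adjusted p = 0.0259), against 43.7 RPKM in wt serum and 646 and 389 RPKM in Prdm14-/-. Phlda2, a growth-restraining gene of the placenta, was at 46.05 and 46.8 RPKM against 11.96 and 14.2 RPKM, a log2 difference of 1.79 ± 0.16 (SE, limma adjusted p = 0.0258), with 44.6 RPKM in wt serum. The other serum libraries had more H19 than FH-Prdm14, 221 to 555 RPKM in FH-Mtgr1 and 143 and 187 RPKM in E294K, so H19 was near wt serum alone. Igf2, the neighbour of H19, was at 2.09 and 1.65 RPKM against 0.664 and 0.424 RPKM, Peg10 at 26.6 and 22.1 RPKM against 12.2 and 3.33 RPKM, and Meg3 at 14.98 and 23.2 RPKM against 42.996 and 36.1 RPKM, none past the threshold. Peg10 was at 119 RPKM in wt serum, above all 4 libraries.

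Of 24 tested genes of cholesterol synthesis 2 were lower in FH-Prdm14 and 0 higher (background 1.28% and 3.96%). The counts were 0 and 11 at an unadjusted p under 0.05 and 0 and 2 by voom. Both FH-Prdm14 libraries were below both 2i libraries for 18 of the 24 (background 25.2%) and above for 0. Msmo1, a sterol methyl oxidase, was at 26.4 and 27.9 RPKM in FH-Prdm14 and 62.1 and 75.6 RPKM in 2i, a log2 difference of -1.32 ± 0.17 (SE, limma adjusted p = 0.0301). Cyp51, the lanosterol demethylase, was at 15.2 and 14.7 RPKM against 34.04 and 38.4 RPKM, a log2 difference of -1.25 ± 0.16 (SE, limma adjusted p = 0.0295). Sqle, the squalene epoxidase, was at 26.6 and 27.1 RPKM against 41.2 and 28.3 RPKM. Hmgcs1 was listed at 0 in all libraries. Without 2i 2 the count was 12 lower and 0 higher (background 7.19% and 10.6%), and the median difference was -0.53 against both, -0.66 against 2i 1 and -0.33 against 2i 2. From the wt serum library the median difference was -0.41 in FH-Prdm14 and 0.18 in 2i, 2 comparisons that share that library.

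Among 18 glycolysis genes, 1 was lower and 0 higher (background 1.28% and 3.96%), with 1 and 4 at an unadjusted p under 0.05 and 0 and 1 by voom. It was Hk1 (hexokinase), at 27.9 and 29.8 RPKM against 68.1 and 108 RPKM, a log2 difference of -1.56 ± 0.26 (SE, limma adjusted p = 0.0447). Ldha was at 606 and 596 RPKM against 732 and 1095 RPKM and Pgk1 at 560.3 and 641 RPKM against 527 and 1110 RPKM, with 2i 2 the highest of the 4 in each. Hk2 was at 76.4 and 76.1 RPKM against 93.8 and 103 RPKM and the glucose transporter Slc2a1 at 189 and 182 RPKM against 187 and 298 RPKM. Both FH-Prdm14 libraries were below both 2i libraries for 13 of the 18 (background 25.2%) and above for 1 (35.4%). The median difference of the list was -0.26 against 2i 1 and -0.82 against 2i 2. Tfrc, the transferrin receptor that brings in iron, was 5.07-fold lower, at 26.5 and 25.3 RPKM against 114 and 149 RPKM, a log2 difference of -2.31 ± 0.19 (SE, limma adjusted p = 0.0255). It was at 98.4 RPKM in wt serum, 39.3 to 44.1 RPKM in FH-Mtgr1, 28.4 and 47.2 RPKM in Prdm14-/- and 68.2 and 70.0 RPKM in E294K. The metal-binding protein Mt2 was at 64.4 and 78.2 RPKM against 213 and 298 RPKM, a log2 difference of -1.82 ± 0.23 (SE, limma adjusted p = 0.0301), and Mt1 at 86.02 and 89.2 RPKM against 265 and 645 RPKM (limma adjusted p = 0.0590). Fth1, which stores iron, was at 214 and 222 RPKM against 177 and 299.8 RPKM, with groups that overlapped. The list of metallothioneins and iron genes had 2 of 9 tested lower and 0 higher (background 1.28% and 3.96%). Its counts were 2 and 4 at an unadjusted p under 0.05 and 0 and 3 by voom. None of 16 genes of the ATF4 stress response passed (4 and 0 at an unadjusted p under 0.05, 1 and 0 by voom), and for Asns, an ATF4 target, 2i 1 and 2i 2 were at 376 and 129 RPKM on either side of FH-Prdm14 (204 and 262 RPKM). The other first members, Chac1 at 12.4 and 16.1 RPKM, Trib3 at 23.5 and 27.2 RPKM and Ddit3 at 13.3 and 19.8 RPKM in FH-Prdm14, were at 9.50 and 2.24 RPKM, 20.3 and 8.11 RPKM and 10.9 and 25.3 RPKM in 2i.

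Lineage markers had members past the threshold in either direction (background 3.96% higher and 1.28% lower by limma). Of 10 tested primitive endoderm genes 2 were higher and 2 lower (4 and 3 at an unadjusted p under 0.05, 2 and 2 by voom). Gata4, a factor of this lineage, was at 1.03 and 0.917 RPKM in FH-Prdm14 and 3.73 and 3.31 RPKM in 2i, a log2 difference of -1.45 ± 0.22 (SE, limma adjusted p = 0.0375). Sparc, a matrix protein, was also lower, at 106 and 112 RPKM against 209 and 243 RPKM, a log2 difference of -1.05 ± 0.16 (SE, limma adjusted p = 0.0397). Lamb1, a laminin chain, was higher, at 59.8 and 49.6 RPKM against 13.4 and 12.9 RPKM, a log2 difference of 2.01 ± 0.17 (SE, limma adjusted p = 0.0255), and so was Amn, at 6.33 and 4.31 RPKM against 1.001 and 0.834 RPKM (limma adjusted p = 0.0316). Gata6 was at 1.61 and 1.34 RPKM against 0.998 and 1.05 RPKM, and Sox17 and Sox7 were too low to be tested. The list thus had no common direction.

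Of 11 trophoblast genes 3 were higher and 0 lower (background 3.96% and 1.28%), with 8 and 0 at an unadjusted p under 0.05 and 3 and 0 by voom. They were Krt19, a keratin, at 23.5 and 18.1 RPKM against 4.85 and 7.56 RPKM, and the X-linked homeobox genes Rhox6, at 9.99 and 8.87 RPKM against 1.95 and 0.632 RPKM, and Rhox9, at 10.5 and 9.25 RPKM against 2.76 and 2.48 RPKM (limma adjusted p = 0.0443, 0.0418 and 0.0259). Rhox6 and Rhox9 are close relatives, and how reads were split between them is not known. Over the 11 trophoblast genes, both FH-Prdm14 libraries were above both 2i libraries for 8 (background 35.4%) and below for 2 (25.2%). Krt7 was at 12.3 and 12.03 RPKM against 3.55 and 7.78 RPKM, Krt8 at 22.9 and 18.01 RPKM against 28.8 and 6.32 RPKM, and Gata3 was below 1 RPKM throughout, while the Prdm14-/- clones held 549 and 396 RPKM of Krt8. Of 6 neural genes 1 was lower and 0 higher (background 1.28% and 3.96%), with 2 and 2 at an unadjusted p under 0.05 and 0 and 1 by voom. Nes (nestin), a filament protein of neural stem cells, was at 6.18 and 4.78 RPKM against 21.6 and 23.7 RPKM, a log2 difference of -1.96 ± 0.20 (SE, limma adjusted p = 0.0259). Sox1 was at 1.41 and 1.44 RPKM against 8.41 and 1.78 RPKM, with 2i 1 alone high, and Sox11 at 3.09 and 2.20 RPKM against 0.710 and 1.05 RPKM. None of 6 mesoderm and streak genes passed (2 and 1 at an unadjusted p under 0.05, 0 and 0 by voom). Gsc (goosecoid), a target of Nodal, was at 5.24 and 3.83 RPKM in FH-Prdm14 and 28.3 and 9.11 RPKM in 2i (limma adjusted p = 0.141), and both arms were above wt serum, 0.161 RPKM. Eomes was at 2.41 and 2.49 RPKM against 3.18 and 2.29 RPKM, and Mixl1 and Evx1 were below 1 RPKM.

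Several further lists gave little, beside a background of 3.96% higher and 1.28% lower by limma. None of 10 tested PRC2 genes passed (0 and 0 at an unadjusted p under 0.05, 0 and 0 by voom). The methyltransferase Ezh2 was at 52.9 and 60.8 RPKM in FH-Prdm14 and 58.9 and 84.4 RPKM in 2i, its partner Eed at 63.9 and 65.8 RPKM against 67.2 and 75.5 RPKM, and Suz12 at 63.6 and 64.6 RPKM against 69.6 and 90.6 RPKM. Jarid2, which brings PRC2 to its targets, was at 54.3 and 54.04 RPKM against 48.8 and 30.9 RPKM. LIF is in both media, and of 11 genes of LIF and Stat3 the 1 that passed was Junb, higher as given with the ERK genes (4 and 1 at an unadjusted p under 0.05, 1 and 0 by voom). Stat3 was at 27.04 and 26.96 RPKM against 25.3 and 26.5 RPKM, its feedback inhibitor Socs3 at 58.4 and 61.3 RPKM against 45.2 and 42.8 RPKM, and the receptor chains Lifr and Il6st at 10.8 and 12.9 RPKM and 15.2 and 16.2 RPKM in FH-Prdm14 and 11.8 and 9.98 RPKM and 22.8 and 13.5 RPKM in 2i. Of 6 retinoid response genes 1 was higher and 0 lower (2 and 0 at an unadjusted p under 0.05, 1 and 0 by voom), Crabp1, a retinoic acid-binding protein, at 63.2 and 63.03 RPKM against 29.1 and 30.7 RPKM, a log2 difference of 1.07 ± 0.14 (SE, limma adjusted p = 0.0318), while Stra8 was at 6.47 and 4.75 RPKM against 3.99 and 2.20 RPKM. Of 4 tested fibroblast markers 1 was higher and 0 lower (2 and 0 at an unadjusted p under 0.05, 1 and 0 by voom), Thy1, which mESCs also express, at 12.4 and 11.001 RPKM against 1.62 and 2.39 RPKM, a log2 difference of 2.30 ± 0.24 (SE, limma adjusted p = 0.0259), with 15.2 RPKM in wt serum, while Col1a1 was at 2.10 and 1.55 RPKM against 0.419 and 0.0831 RPKM. The Y-linked Ddx3y was at 1.69 and 1.74 RPKM in FH-Prdm14 and at 5.35 and 4.12 RPKM in 2i. Eif2s3y was at 3.08 and 3.13 RPKM against 5.20 and 3.36 RPKM, and Xist at 0.491 and 0.652 RPKM against 1.10 and 1.16 RPKM. None of these genes passed the threshold (0 and 1 at an unadjusted p under 0.05, 0 and 1 by voom). In the Prdm14-/- clones G6 and F10, Ddx3y was at 0.595 and 5.42 RPKM and Eif2s3y at 0.732 and 9.70 RPKM. The FH-Prdm14 lines of the same names were thus alike in Y-linked RNA where these clones differed. What this says of their origin was not tested.

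Across the lists, the medians against each 2i library show where a statement rests on 1 of them. Among others, two-cell, trophoblast, ERK, SRF and YAP, β-catenin, germline and formative genes had medians above those of all genes against either library, and cholesterol, glycolysis and Nodal genes had medians below. For naive, BMP, primitive endoderm, DNA methylation, neural and Prdm14 and corepressor genes the sign of the median depended on which 2i library was used.

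**Figure D5:**
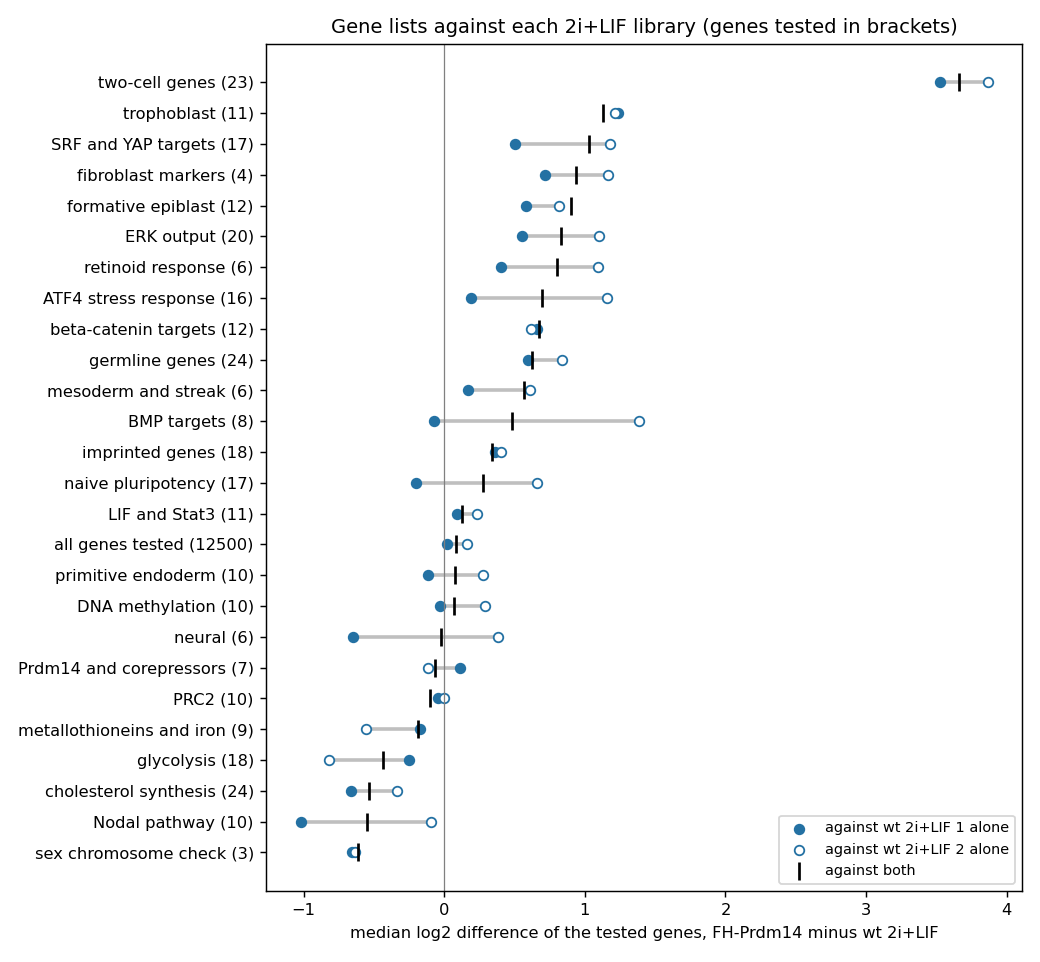
Median log2 difference, FH-Prdm14 minus wt 2i+LIF, over the tested genes of each list, against 2i 1 (filled circle), 2i 2 (open circle) and both (bar), with the number of genes in brackets. The two-cell list, most of whose tested genes passed the filter through FH-Prdm14 alone, is at 3.53 to 3.87 beside 0.02 to 0.16 for all genes, and the Nodal list is at -1.02 against 2i 1 and -0.10 against 2i 2.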

How the data were processed

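RNA was extracted with Trizol, purified with oligo-dT and sequenced by the authors, who aligned reads with Tophat to mm9, counted them over RefSeq gene models with HTSeq and deposited RPKM for each library. Versions are not given in the sources used here, and neither is which library ran on which of the study's instruments. Reads computed back from the deposited RPKM and gene lengths came out whole for 100.0% of values (tolerance 0.01), so the depth was known, 10668572 to 14460382 reads on genes. RPKM as deposited does not correct for a few genes that take many reads. By their labels, replicates are separate clones or cultures of 1 library each, so p-values measure the spread between these libraries.

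Values were taken as log2(RPKM + 0.5), which understates changes of low genes, for the 12500 genes that reached 1 RPKM in 2 or more of the 4 libraries. limma 3.58.1 in R 4.3.3 was fitted to these libraries alone, with a mean-variance trend, no covariate and Benjamini-Hochberg adjustment over all genes at a threshold of 0.05. The fit was tested beforehand on simulated data with the same spread in all 4 libraries. The real 2i pair was wider than the FH-Prdm14 pair, so that test does not cover an unequal spread. Named genes were Prdm14, Cbfa2t2, the 12 genes that changed most in each direction (past the threshold, groups that did not overlap, mean of at least 5 RPKM in the higher group), and of each of 25 gene lists the first 4 in the table and up to 4 more past the threshold. Some genes that the rule names are not reported here. The members and lists were chosen with earlier results of these data known. Positions are from GENCODE on NCBIM37, the authors' mm9, and promoter sequences from RefSeq on GRCm38.p6. Alternatives were the pseudocount, the filter, scaling, voom, all 15 libraries, GC content, gene length and leaving out each library. ChIP-seq samples of the series were not used. Among the 4 libraries, the closest pair by correlation was FH-Prdm14 G6 and F10 (Pearson r = 0.991 on the log2 scale). Its chi-square was 5.12 per degree of freedom over genes, well above sampling noise. Duplicates among the other libraries of the series were not looked for.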

Additional observations from a re-analysis of the deposited data

How the results depend on the processing

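The count of genes past the threshold was 655, of which 495 were higher and 160 lower in FH-Prdm14. With a filter of RPKM of at least 5 in 2 libraries it was 297 (198 and 99), with all 15 libraries in the fit 3060 (1981 and 1079), and with an adjustment for GC content 1052 (761 and 291). The number lower was 305 with median-of-ratios scaling and 319 with voom on reads computed back. The share higher was 75.6% in the fit reported and 64.7% with voom (585 higher). Leaving out 1 library gave between 31 and 7315 genes, 28 to 4681 higher and 3 to 2634 lower, the fewest without FH-Prdm14 G6 and the most without 2i 1. Such a fit takes the spread of the lone library from the pair that is left, and the FH-Prdm14 pair was far closer than the 2i pair. Alternatives chosen after seeing the data were the fit of 14 libraries without 2i 2, with 2226 genes (1327 and 899), and rescaling without genes for RNAs without a poly(A) tail, with 258 genes lower. Pseudocounts of 0.1 and 1, no filter and an adjustment for gene length kept the 3 counts within 1.5 times.

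Of 62 named genes past the threshold, each kept its direction wherever it was tested. Prdm14 itself lost the call without a filter (limma adjusted p = 0.0555) and with the stricter filter (0.0525). Without FH-Prdm14 G6 45 named genes lost it and without F10 37. No paired analysis was possible because the 2i+LIF libraries come from wt cells and share no clone with the FH-Prdm14 lines. The 2i libraries differed from each other by a chi-square of 64.45 per degree of freedom, against 5.12 for FH-Prdm14.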
